A study of Homo sapiens with 16 samples.

Results

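Divergent promoter transcripts are long noncoding RNAs that start at the promoter of a protein-coding gene and are transcribed away from it, on the other strand. Gene nomenclature marks them by the name of the neighbouring gene followed by -DT, and the members described here were all genes with such a name in the tables of normalized read counts, each set beside the protein-coding gene that its name gives. There were 149 of them among the 59609 genes listed, and 148 had their partner in the table. In RefSeq, 148 were matched by current or older symbol and annotated as long noncoding RNA, and all 149 partners were protein-coding. The samples were labelled Huh7, an established line of human hepatocellular carcinoma cells. Polyadenylated RNA was sequenced in 3 samples given sorafenib, a multikinase inhibitor used against liver cancer, and in 3 given DMSO, the solvent control. A separate experiment compared 3 samples overexpressing MT1G, a metallothionein that binds zinc and other metals, with 3 samples carrying an empty vector. Open chromatin was mapped by ATAC-seq in 2 sorafenib and 2 DMSO samples. Dose and duration of sorafenib and the promoter of the MT1G construct were not given in the labels, which also do not say whether replicates were separate cultures, so p-values measure only the spread between these samples.

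Most active mammalian promoters fire in both directions. The RNA running away from the gene is usually cut short by early polyadenylation signals, by the Integrator complex or by the ZC3H4 and WDR82 restrictor complex, and is degraded by the nuclear exosome with its adaptors, so that little of it accumulates. Those -DT transcripts that have been annotated are ones that are spliced or polyadenylated often enough to be seen, and for most of them no function of their own is established.

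Each RNA library held 16549330 to 26781600 reads in genes. MT1G itself had 0 reads in the 3 vector libraries and normalized counts of 140, 130 and 179 in the MT1G libraries. Most usual markers of the labelled liver origin were absent: ALB and APOB were listed at 0 in all 12 libraries, and of 10 hepatocyte markers only HNF4A had enough reads to be tested, at 340 ± 9.03 in DMSO and 117 ± 31.8 in sorafenib (SD, n = 3). NELFE, which every cell uses, was also listed at 0, so a value of 0 can come from the counting as well as from the cells. The strand setting of the counting is not given in the sources used here, and 31 of the 148 pairs with known spans overlap in RefSeq; the overlap ranges from 3 to 21294 bases. Where the counting used no strand, reads within an overlap cannot be assigned to the divergent transcript or to its partner. In bulk RNA, fewer cells with a transcript and less of it per cell cannot be told apart either.

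With sorafenib most divergent transcripts that could be tested rose, while their protein-coding partners moved in both directions. Of 60 members with enough reads to be tested (a mean normalized count of at least 10 over the 6 libraries), 48 rose, 5 fell and 7 were not called (limma on log2 of the count plus 1, adjusted p under 0.05). Over all 14915 genes tested, 34.4% rose and 35.8% fell. The median log2 change was 1.45 for the members tested, against -0.02 for all genes tested, and the members ran from -1.40 to 4.50. Of the 48 that rose, 20 rose at least 4-fold, 19 rose 2-fold to 4-fold and 9 rose by less, and they lay on 19 chromosomes. A log2 change of at least 2 was seen in 33.3% of the members tested and in 5.55% of all genes tested, shares that depend on the minimum as described further on.

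The summed normalized count of all 149 members, tested or not, was 7170, 7111 and 6674 in the sorafenib libraries and 3346, 3470 and 3456 in the DMSO libraries. The groups do not overlap, and the mean sum was 6985 ± 270 against 3424 ± 68.0 (SD, n = 3). Without NIPBL-DT, the member with the highest count, the sums were 5935 ± 256 and 2994 ± 87.9. As a share of all reads in genes, the members took 394 ± 14.2 ppm with sorafenib and 165 ± 4.77 ppm with DMSO, against 2254 ± 38.4 and 1283 ± 35.9 ppm for antisense RNAs. RefSeq long noncoding RNAs together took 1.04 ± 0.0229% of counts with sorafenib and 0.515 ± 0.0108% with DMSO, so that shares of other noncoding RNA were higher with sorafenib too. Of the members, 115 ± 3.21 had a read in a library with sorafenib against 98.0 ± 4.36 with DMSO.

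**Figure D1:**
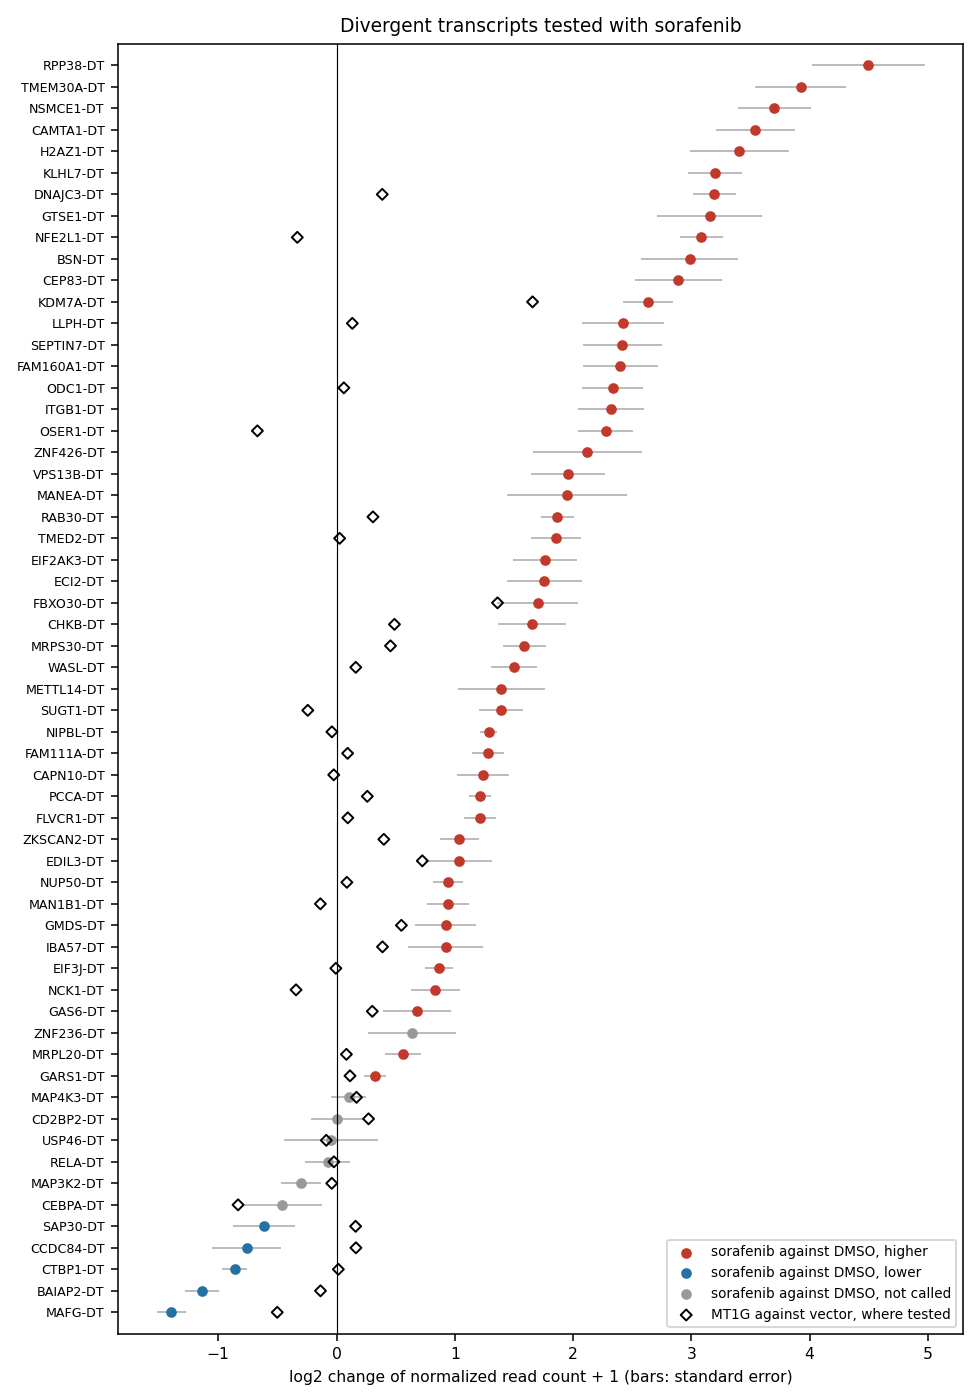
Log2 change (x axis, of normalized read count plus 1) of 59 of the 60 divergent transcripts tested with sorafenib, with its standard error as a bar; red rose, blue fell, grey was not called. Open diamonds give the change of the same transcript with MT1G overexpression where it was tested, and most of them lie near 0 while 47 of the 59 sorafenib points lie to the right and were called.

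Members that were scarce in DMSO cells pass the minimum only through their sorafenib libraries, and 15 of the 60 were below a mean of 10 in DMSO, against 0 below it in sorafenib. Of the 45 members with a DMSO mean of at least 10, 33 rose and 5 fell, with a median log2 change of 1.04; of the 14008 genes with such a mean, 31.0% rose and 38.2% fell. A log2 change of at least 2 was then seen in 8 of the 45 members (17.8%) and in 2.23% of those genes. Members can also be taken by their mean in the other experiment, which shares no library with this one. Of the 41 members tested in both, 30 rose with sorafenib and 5 fell, with a median of 1.03, beside 31.2% and 38.8% of the 13748 genes tested in both. The share that rose was therefore above the background under each way of choosing by level that was tried.

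The largest rise was that of RPP38-DT, which starts beside the gene of a ribonuclease P subunit. It had 0, 1 and 1 reads in the DMSO libraries (normalized counts of 0, 0.964 and 1.09) and normalized counts of 39.7, 38.1 and 28.8 in the sorafenib libraries. With so few control reads the ratio of reads per library factor was 51.1, with a 95% counting interval of 13.8 to 427, and the log2 change was 4.50 ± 0.48 (SE, limma adjusted p = 3.72e-07). RPP38 itself rose by far less, from 184 ± 8.32 to 295 ± 22.7 (log2 0.67 ± 0.10).

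DNAJC3-DT showed the change at a level where counting error is small. Its partner encodes a chaperone of the endoplasmic reticulum that restrains the stress kinase PERK. The divergent transcript had normalized counts of 34.9, 26.0 and 21.8 with DMSO and 273, 270 and 229 with sorafenib. Every sorafenib library was several times above every DMSO library, and the means differed 9.32-fold (log2 3.20 ± 0.18, limma adjusted p = 1.71e-10). DNAJC3 stood at 1300 ± 88.8 and 1363 ± 91.1 and was not called (log2 0.07 ± 0.07, limma adjusted p = 0.413).

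NFE2L1-DT starts beside the gene of a transcription factor that drives proteasome subunit genes. It had 28.1, 23.1 and 18.6 with DMSO and 219, 190 and 198 with sorafenib, an 8.70-fold difference in means (log2 3.08 ± 0.18, limma adjusted p = 3.27e-10). The groups lie far apart, while NFE2L1 overlapped between groups at 5273 ± 93.4 and 5167 ± 148. KLHL7-DT, beside the gene of a Cullin 3 ubiquitin ligase adaptor, had 11.2, 8.68 and 10.9 with DMSO and 91.2, 110 and 107 with sorafenib (log2 3.20 ± 0.23, limma adjusted p = 3.68e-09). KLHL7 was not called (log2 0.14 ± 0.08).

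The others of the 10 largest rises had lower counts. TMEM30A-DT, beside a subunit gene of lipid flippases, went from 2.07 ± 0.889 to 44.3 ± 3.22 (log2 3.93 ± 0.38). NSMCE1-DT, beside a gene of the SMC5/6 complex, went from 5.33 ± 2.02 to 79.7 ± 14.1 (log2 3.70 ± 0.31), but the spans of this pair overlap. CAMTA1-DT, beside a calmodulin-binding transcription activator gene, had 4.50, 2.89 and 3.27 with DMSO and 60.8, 48.9 and 45.9 with sorafenib (log2 3.54 ± 0.33). In none of these 3 did a DMSO library come near a sorafenib library, and both TMEM30A and NSMCE1 fell slightly (log2 -0.28 ± 0.07 and -0.34 ± 0.07). H2AZ1-DT, beside the gene of histone variant H2A.Z, had 10.1, 10.6 and 2.18 with DMSO and 86.9, 86.1 and 63.0 with sorafenib (log2 3.41 ± 0.42). GTSE1-DT, beside a gene of a microtubule-binding protein of the G2 phase, went from 3.28 ± 2.00 to 33.9 ± 6.60 (log2 3.15 ± 0.45). BSN-DT, beside the gene of the presynaptic scaffold Bassoon, had 2.25, 4.82 and 2.18 with DMSO and 32.1, 22.7 and 37.4 with sorafenib (log2 2.99 ± 0.41). These 6 changes had limma adjusted p-values of 1.51e-07, 2.07e-08, 8.94e-08, 3.09e-06, 9.35e-06 and 6.89e-06 in the order given. All 6, and RPP38-DT above, had a DMSO mean below 10 and passed the minimum only through their sorafenib libraries.

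**Figure D2:**
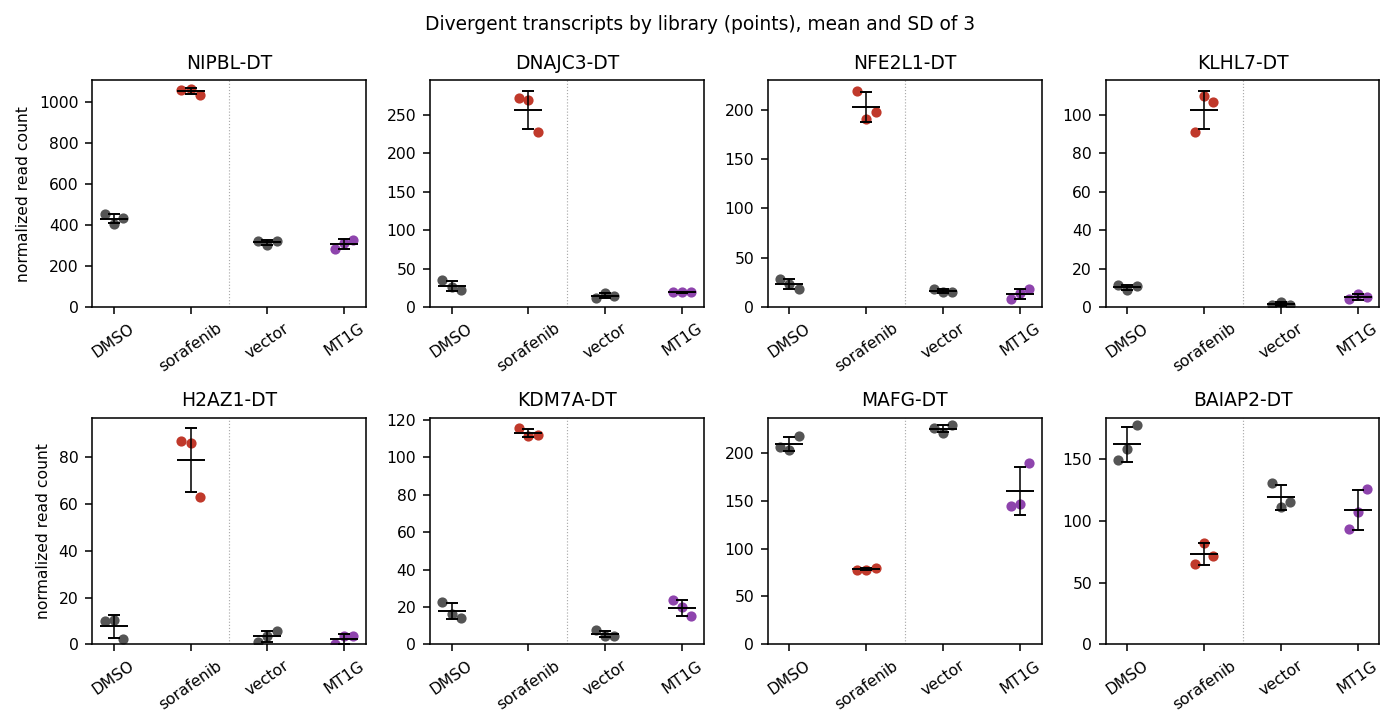
Normalized read counts (y axis, each panel with its own scale from 0) of 8 divergent transcripts in every RNA library (points), with the mean and SD of 3 as bars; DMSO and sorafenib come from one experiment, vector and MT1G from another that was normalized separately. DNAJC3-DT, NFE2L1-DT, KLHL7-DT and H2AZ1-DT stand high only in the sorafenib libraries among those shown, MAFG-DT and BAIAP2-DT are lower with sorafenib, and MAFG-DT is also lower with MT1G.

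By the mean over all 6 libraries, which a rise itself lifts, the 3 highest members were NIPBL-DT, PCCA-DT and GARS1-DT. All 3 rose. CTBP1-DT, the next by that mean, fell (log2 -0.86) and is described further on. In DMSO it stood above both PCCA-DT and GARS1-DT. NIPBL-DT, beside the gene of the cohesin loader, had 451, 406 and 435 with DMSO and 1058, 1059 and 1034 with sorafenib, so that the groups were far apart (2.44-fold, log2 1.29 ± 0.07, limma adjusted p = 2.08e-10). NIPBL overlapped between groups at 3277 ± 507 and 2997 ± 274. PCCA-DT, beside the gene of the propionyl-CoA carboxylase alpha subunit, went from 202 ± 14.7 to 471 ± 26.5 (log2 1.21 ± 0.09). NUP50-DT, beside a nucleoporin gene, went from 113 ± 12.2 to 218 ± 19.2 (log2 0.94 ± 0.13). GARS1-DT, beside the glycyl-tRNA synthetase gene, rose least of all members called, from 277 ± 14.8 to 347 ± 14.8 (log2 0.33 ± 0.09, limma adjusted p = 0.00456), and its partner rose too (log2 0.45 ± 0.06).

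Of 128 protein-coding partners tested, 45 rose, 49 fell and 34 were not called, with a median log2 change of -0.03. These shares lie near those of all genes tested (34.4% and 35.8%) and of protein-coding genes (31.1% and 40.0%). In 59 pairs both transcripts were tested: among the 47 whose divergent transcript rose, the partner rose in 13, fell in 19 and was not called in 15. Across the 59 pairs the changes of the 2 transcripts had a Pearson r of 0.03 and a Spearman coefficient of 0.03. These are descriptions over pairs measured in the same 6 libraries.

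The ratio of divergent transcript to partner was tested within each library, which removes whatever scales both alike. It rose in 48 of 59 pairs (81.4%), fell in 6 (10.2%) and was not called in 5 (limma adjusted p under 0.05), with a median log2 change of 1.59. For 321 pairs of an antisense RNA (name ending in -AS and a digit, or -AS alone) and the gene its name gives, 54.5% had a higher ratio and 11.8% a lower one. Pairs whose member passed the minimum only through its sorafenib libraries enter this count. Of the 44 pairs whose member had a DMSO mean of at least 10, 33 ratios rose and 6 fell, with a median of 1.26, beside 49.4% and 14% of 257 antisense pairs chosen alike. Of the 40 pairs whose member had a mean of at least 10 in the MT1G experiment, 30 rose and 6 fell, with a median of 1.16, beside 50% and 15.0% of 234 antisense pairs. Among the 48 divergent pairs whose RefSeq spans lie apart, 40 members rose and 41 ratios rose, and among the 11 that overlap both counts were 7.

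The 2 smallest p-values of the ratio belonged to pairs whose partner was not called. The ratio of DNAJC3-DT to DNAJC3 rose by 3.13 ± 0.18 on the log2 scale (95% interval 2.74 to 3.52, limma adjusted p = 3.09e-10) and that of NFE2L1-DT to NFE2L1 by 3.11 ± 0.18 (limma adjusted p = 3.5e-10). In other pairs the transcripts parted. ITGB1-DT had 7.87, 9.64 and 15.3 with DMSO and 58.2, 55.3 and 56.6 with sorafenib, while ITGB1, the integrin beta 1 gene, fell from 8479 ± 605 to 3574 ± 243 (log2 -1.25 ± 0.07). The 2 groups of libraries did not overlap for either transcript, and the ratio rose by 3.57 ± 0.30 (limma adjusted p = 2.13e-08).

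FLVCR1-DT also parted from its gene, at a higher count. It had 81.0, 79.0 and 105 with DMSO and 214, 203 and 195 with sorafenib (log2 1.21 ± 0.14), and FLVCR1, a choline and heme transporter gene, fell from 1197 ± 135 to 690 ± 36.1 (log2 -0.79 ± 0.08). The ratio rose by 2.00 ± 0.17 (limma adjusted p = 2.44e-08). H2AZ1 fell by 0.52 ± 0.05 on the log2 scale and NUP50 by 0.43 ± 0.07 while H2AZ1-DT and NUP50-DT rose. In the OSER1 pair both rose: OSER1, a gene named for its response to oxidative stress, went from 1030 ± 40.8 to 2995 ± 41.0 and its divergent transcript from 37.6 ± 13.9 to 176 ± 10.4, with a ratio log2 change of 0.73 ± 0.22 (limma adjusted p = 0.00693). That pair overlaps in span.

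**Figure D3:**
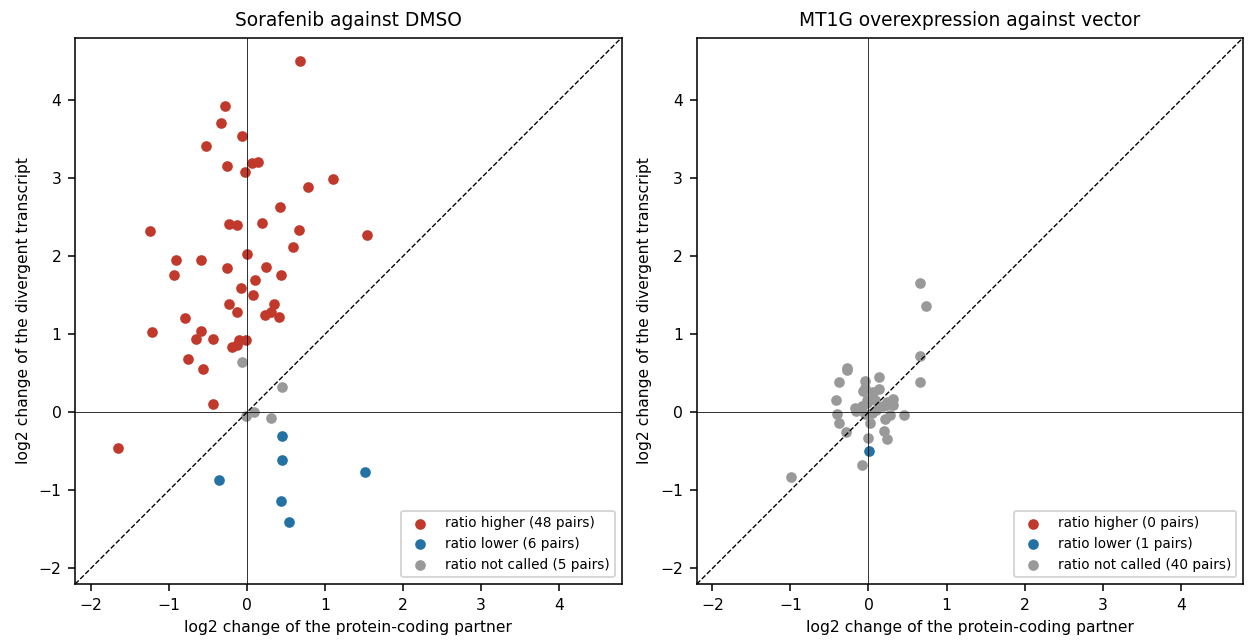
Log2 change of each divergent transcript (y axis) against that of its protein-coding partner (x axis), with sorafenib on the left (59 pairs) and MT1G overexpression on the right (41 pairs); the dashed line marks equal change and the colour gives the test of the ratio. With sorafenib 48 pairs lie above the line and were called, at partner changes on both sides of 0, and with MT1G 40 of the 41 pairs were not called.

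The 5 members that fell were MAFG-DT, BAIAP2-DT, CTBP1-DT, CCDC84-DT and SAP30-DT, and in 4 of these 5 pairs the partner rose. MAFG-DT had 206, 203 and 217 with DMSO and 77.6, 77.9 and 80.1 with sorafenib (log2 -1.40 ± 0.12, limma adjusted p = 3.99e-08). No library of one group came near the other, and MAFG, a small Maf transcription factor that pairs with NRF proteins, rose from 1693 ± 102 to 2452 ± 143 (log2 0.53 ± 0.07). The ratio fell by 1.93 ± 0.13, but the whole span of MAFG-DT, listed in RefSeq as MILIP, lies within that of MAFG.

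BAIAP2-DT, beside a gene of an adaptor protein of the actin cytoskeleton, had 150, 158 and 178 with DMSO and 65.0, 82.5 and 71.6 with sorafenib (log2 -1.14 ± 0.14, limma adjusted p = 2.78e-06). The groups were apart in the other direction for BAIAP2, which rose from 932 ± 61.8 to 1264 ± 41.6. CTBP1-DT and the corepressor gene CTBP1 fell together, from 300 ± 13.7 to 165 ± 17.0 and from 2358 ± 150 to 1839 ± 74.1, with overlapping spans. CCDC84-DT had 36.0, 42.4 and 42.6 with DMSO and 27.0, 33.5 and 13.9 with sorafenib (log2 -0.76 ± 0.29, limma adjusted p = 0.0301) beside a partner that rose from 361 ± 27.3 to 1030 ± 63.8. SAP30-DT, beside a gene of a histone deacetylase complex, had 27.0, 33.7 and 37.1 with DMSO and 20.3, 24.5 and 18.2 with sorafenib (log2 -0.61 ± 0.26, limma adjusted p = 0.0463).

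The calls of CCDC84-DT and SAP30-DT were the weak ones. Without DMSO replicate 2, DMSO replicate 3 or sorafenib replicate 3 both were lost, so that 3 members fell in each case, and both were lost with edgeR (adjusted p = 0.0598 and 0.0564) and with DESeq2 (adjusted p = 0.0898 and 0.134) on the recovered reads. SAP30-DT was also lost without sorafenib replicate 1, with the replicate number as a block (limma adjusted p = 0.0635), with no minimum (limma adjusted p = 0.0848) and with the other variance trend (limma adjusted p = 0.0529). MAFG-DT, BAIAP2-DT and CTBP1-DT were called under every one of these settings. Of the 7 members not called, MAP3K2-DT (log2 -0.30 ± 0.17) passed without DMSO replicate 1 (log2 -0.48, limma adjusted p = 0.0195), and the remaining ones included CEBPA-DT at -0.46 ± 0.34, whose partner CEBPA, a liver transcription factor gene, fell from 685 ± 67.1 to 219 ± 26.6.

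Where a start was annotated, the pairs had the layout their names imply. The RefSeq table of promoter windows held a start for 120 members and for both transcripts of 111 pairs, and all 111 ran on opposite strands. In 105 the divergent transcript started upstream of its partner and in 6 it started on the partner's side. The starts were a median of 201 bp apart, and within 500 bp of each other in 93 pairs. The stretches printed next show this shared DNA for 5 members that rose with sorafenib and the 3 that fell with the smallest p-values; KDM7A-DT and MAFG-DT are among them because they were called with MT1G as well. Each is read 5′ to 3′ along the strand of the divergent transcript (GRCh38.p14, RefSeq), from up to 250 bases before its start to 50 bases after it, beginning later where the partner's own start lies within those 250 bases. Capitals mark matches, on either strand, to the GC box GGGCGG, the CCAAT box CCAAT, the TATA box TATAAA, the ETS site CCGGAAG and the palindrome of the NRF1 site. The cyclic AMP element TGACGTCA, its variant TGACGTNA and the AP-1 site TGACTCA were searched too and had no match in these stretches.
DNAJC3-DT, chr13:95676876-95677138, minus strand: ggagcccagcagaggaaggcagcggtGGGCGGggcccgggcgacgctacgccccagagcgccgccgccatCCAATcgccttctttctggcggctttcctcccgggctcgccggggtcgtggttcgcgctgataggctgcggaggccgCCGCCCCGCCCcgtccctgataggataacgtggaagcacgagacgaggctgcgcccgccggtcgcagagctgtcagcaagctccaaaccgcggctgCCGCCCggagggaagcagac
NFE2L1-DT, chr17:48048004-48048303, minus strand: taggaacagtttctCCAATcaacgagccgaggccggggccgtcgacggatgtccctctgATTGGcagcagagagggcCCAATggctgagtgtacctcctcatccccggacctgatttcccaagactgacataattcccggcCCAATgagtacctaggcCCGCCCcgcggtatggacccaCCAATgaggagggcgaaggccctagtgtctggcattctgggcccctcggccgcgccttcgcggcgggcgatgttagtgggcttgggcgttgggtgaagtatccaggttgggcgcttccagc
CAMTA1-DT, chr1:6784931-6785230, minus strand: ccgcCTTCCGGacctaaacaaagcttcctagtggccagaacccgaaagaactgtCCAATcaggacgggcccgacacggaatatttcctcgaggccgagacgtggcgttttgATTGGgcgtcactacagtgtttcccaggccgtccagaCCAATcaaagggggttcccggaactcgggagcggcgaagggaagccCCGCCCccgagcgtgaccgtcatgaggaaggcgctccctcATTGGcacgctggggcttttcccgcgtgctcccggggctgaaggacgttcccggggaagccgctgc
H2AZ1-DT, chr4:99950276-99950543, plus strand: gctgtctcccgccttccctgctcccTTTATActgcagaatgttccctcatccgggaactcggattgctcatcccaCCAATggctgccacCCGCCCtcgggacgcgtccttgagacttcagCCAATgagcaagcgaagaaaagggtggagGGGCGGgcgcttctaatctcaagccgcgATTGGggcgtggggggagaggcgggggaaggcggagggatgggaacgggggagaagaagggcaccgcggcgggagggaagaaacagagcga
KDM7A-DT, chr7:140177011-140177310, plus strand: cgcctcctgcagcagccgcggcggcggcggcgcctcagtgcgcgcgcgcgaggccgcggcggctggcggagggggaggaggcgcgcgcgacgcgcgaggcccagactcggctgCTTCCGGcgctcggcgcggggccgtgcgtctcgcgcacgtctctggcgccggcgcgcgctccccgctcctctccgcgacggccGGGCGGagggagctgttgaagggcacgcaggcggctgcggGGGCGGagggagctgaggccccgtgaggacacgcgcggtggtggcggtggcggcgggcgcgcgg
MAFG-DT, chr17:81927736-81927878, plus strand: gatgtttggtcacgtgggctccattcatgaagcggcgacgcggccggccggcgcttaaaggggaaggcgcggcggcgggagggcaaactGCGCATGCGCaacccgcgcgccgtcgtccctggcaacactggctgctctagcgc
BAIAP2-DT, chr17:81034670-81034969, minus strand: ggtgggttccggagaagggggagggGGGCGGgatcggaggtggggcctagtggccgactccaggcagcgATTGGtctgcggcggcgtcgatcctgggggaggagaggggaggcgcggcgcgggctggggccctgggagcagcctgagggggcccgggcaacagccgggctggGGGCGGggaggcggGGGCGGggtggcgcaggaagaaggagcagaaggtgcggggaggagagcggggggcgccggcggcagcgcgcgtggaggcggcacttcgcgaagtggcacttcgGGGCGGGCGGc
CTBP1-DT, chr4:1249190-1249489, plus strand: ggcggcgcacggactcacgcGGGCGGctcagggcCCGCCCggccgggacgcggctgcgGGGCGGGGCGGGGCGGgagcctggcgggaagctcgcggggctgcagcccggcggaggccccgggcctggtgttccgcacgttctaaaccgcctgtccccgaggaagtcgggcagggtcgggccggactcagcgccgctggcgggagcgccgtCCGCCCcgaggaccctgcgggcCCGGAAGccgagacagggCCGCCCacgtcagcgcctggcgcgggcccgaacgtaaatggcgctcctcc

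Among the 5 that rose, NFE2L1-DT has 5 CCAAT boxes and CAMTA1-DT 4, H2AZ1-DT has 3 with the TATA letters near the H2AZ1 side, DNAJC3-DT has 4 GC boxes, and KDM7A-DT has 2 GC boxes and 1 ETS site. Among the 3 that fell, CTBP1-DT has 7 GC boxes and BAIAP2-DT 5, overlapping ones included, and MAFG-DT has 1 NRF1 site. Stretches not printed differ: RPP38-DT, the largest rise, has none of these motifs. BSN-DT, which rose, has 2 NRF1 sites, and GTSE1-DT has 1 NRF1 site, 1 CCAAT box and 1 ETS site. NIPBL-DT, which rose too, has 1 ETS site. CCDC84-DT and SAP30-DT, which fell, have 2 GC boxes each, and SAP30-DT has 1 CCAAT box. Over all 120 members with a promoter window of 300 bases, 77.5% held a GC box, against 44.6% of 27305 genes with such a window, and the median GC content was 66.8% against 58.3%. TATA boxes were in 4.17% against 12%, CCAAT boxes in 35.8% against 35.7%, NRF1 sites in 5.0% against 1.36%. ETS sites were in 19.2% of member windows against 10.7% of all genes. In the 39 windows of members that rose with sorafenib, the shares were 74.4% for the GC box, 43.6% for the CCAAT box, 7.69% for the TATA box, 7.69% for the NRF1 site and 35.9% for the ETS site. The metal response core TGCNCNC was in 70.8% of members and 76.9% of those that rose, against 55.2% of all genes. GC-rich letters are more frequent in GC-rich windows, and these matches describe the letters only.

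The chromatin at most of the starts was open with and without sorafenib. An ATAC-seq peak lay within 500 bp of the start in all 4 libraries for 98 of the 120 members (81.7%), against 47.0% of all 35116 annotated starts, whether or not their genes were expressed. The same held for 95 of 111 partner starts (85.6%). A peak was found in no library at 14 member starts (11.7%), against 43.6% of all starts. With the starts of a pair a median of 201 bp apart, 1 peak can count for both. Of the 39 members that rose and had an annotated start, 37 had a peak in all 4 libraries and 1 had none, GARS1-DT, whose annotated start lies 16956 bp from that of GARS1. GAS6-DT had a peak in 3 of the 4. A peak in both sorafenib and neither DMSO library was found at 2 starts, DPP4-DT and BMPR1B-DT, and the reverse at 2, BARX1-DT and LRRK2-DT, which is 1.67% of members each, beside 0.934% and 1.43% of all starts. None of these 4 had enough reads to be tested: DPP4-DT had 0 reads in all 12 libraries, BMPR1B-DT had 1 read in the DMSO libraries and 0 in the sorafenib libraries, BARX1-DT had 5 reads with sorafenib and 2 with DMSO, and LRRK2-DT 20 and 8. With 2 libraries a group, these peak lists were compared by overlap with no test.

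Other noncoding RNAs were counted in the same fit. Of 353 antisense RNAs tested, 53.8% rose and 12.7% fell, and of 206 RNAs with a LINC name 54.9% rose and 13.6% fell. Other RefSeq long noncoding RNAs gave 56.3% and 15.9%, with medians of the log2 change between 0.63 and 0.73 in these 3 classes. Of 12091 protein-coding genes 31.1% rose and 40.0% fell. Level is part of this background: of the 4257 genes with a mean of 10 to 100, 41.9% rose and 16.5% fell, and of the 43 members in that range 83.7% rose. Of the 17 members with a mean of 100 to 1000, 12 rose and 3 fell, beside 38.0% and 34.4% of 6364 genes. These shares use the mean over all 6 libraries, so genes scarce in DMSO can enter through their sorafenib libraries. Of the 60 members tested, 15 were below a mean of 10 in DMSO. The other noncoding classes were not counted by their DMSO mean. The difference between classes was not tested. The share of counts from mitochondrial genes moved too, at 3.50 ± 0.128% with sorafenib and 4.88 ± 0.185% with DMSO, and its part in these counts was not tested.

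**Figure D4:**
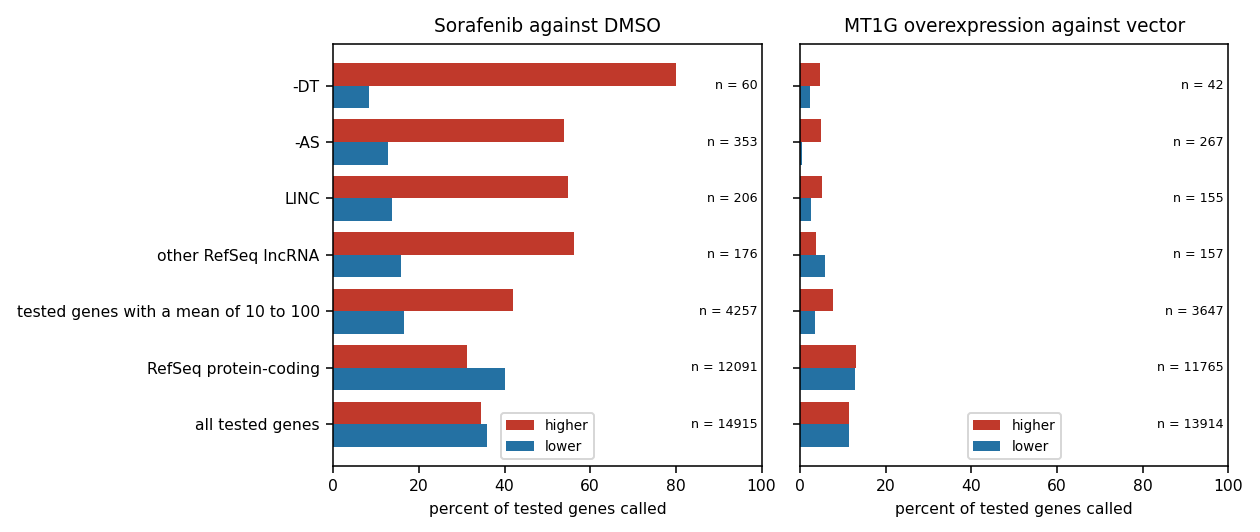
Percent of tested genes that rose (red) or fell (blue) for divergent transcripts (-DT), antisense RNAs (-AS), RNAs with LINC names, other RefSeq long noncoding RNAs, genes with a mean normalized count of 10 to 100, protein-coding genes and all tested genes, with the number tested (n) beside each pair of bars. With sorafenib the bar of divergent transcripts reaches 80.0%, the other noncoding classes lie between 53.8% and 56.3%, and with MT1G all classes lie under 14 percent. Genes enter by their mean over all 6 libraries of an experiment, so some were scarce in its controls.

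The 89 members under the minimum were counted with no test. In the sorafenib experiment 19 members had 0 reads in all 6 libraries, and 70 had reads but a mean below 10. Of these 70, 57 had a higher mean with sorafenib and 13 a lower one, and in 20 the sorafenib libraries all lay above the DMSO libraries against 1 with the reverse. Of the 16943 genes with reads and a mean below 10, 68.6% had a higher mean with sorafenib, and 15.0% and 3.52% had libraries all above and all below. The members among them had a higher median level, at 1.90 against 0.761. Over all 130 members with reads, 68 had every sorafenib library above every DMSO library and 7 every one below, beside 24.7% and 19.3% of 31858 genes with reads. LAPTM4A-DT, beside a lysosomal membrane protein gene, had 0 reads with DMSO and normalized counts of 2.53, 9.97 and 8.54 with sorafenib, at least 6.46-fold higher against a floor of 3 reads over the DMSO group. LYPLAL1-DT, with 4.22, 6.34 and 2.14, and RNFT1-DT, with 5.06, 2.72 and 3.20, were likewise at 0 in DMSO, at least 4.11-fold and 3.53-fold higher. Such floors and intervals cover counting error only.

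Because divergent transcripts are kept scarce by termination and decay, the genes of those systems were read in the same libraries. Of tested genes with a mean of at least 1000, 21.8% rose and 57.1% fell with sorafenib, and of protein-coding genes 31.1% and 40.0%, so that more lower than higher members is no result about a list. Of 14 Integrator genes 2 rose and 7 fell, of 13 nuclear exosome genes 2 rose and 6 fell, and of 13 genes of exosome adaptors and cap binding 2 rose and 7 fell. Of 16 genes of early termination (restrictor, U1 and cleavage factors) 5 rose and 9 fell, and of 11 tested pause release genes 4 rose and 3 fell. The medians of the log2 change were -0.31, -0.13, -0.20, -0.20 and 0.04 in that order, beside -0.02 over all genes and -0.08 over protein-coding genes.

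The change furthest from 0 in these lists was that of ZC3H4, the restrictor subunit that ends transcription of unspliced RNA. It had 1561, 1566 and 1627 with DMSO and 290, 307 and 225 with sorafenib, a log2 change of -2.54 ± 0.10 (limma adjusted p = 2.33e-12). Its partner in the complex, WDR82, fell from 4641 ± 72.0 to 2461 ± 86.4 (log2 -0.92 ± 0.06). The sorafenib libraries were the low ones for both genes with no overlap. The exosome helicase gene MTREX fell from 1900 ± 179 to 1071 ± 63.6 (log2 -0.82 ± 0.08), the Integrator gene INTS5 from 991 ± 80.4 to 457 ± 45.3 (log2 -1.12 ± 0.09) and CDK9, the pause release kinase gene, from 2720 ± 169 to 1300 ± 55.5 (log2 -1.06 ± 0.06). Others went up: the termination factor gene PCF11 rose from 719 ± 43.7 to 1970 ± 94.5 (log2 1.45 ± 0.07), CSTF3 of the cleavage machinery by 1.12 ± 0.08 and INTS12 by 1.18 ± 0.09 on the log2 scale. These RNA levels moved in the same samples as the divergent transcripts, and their part in that change was not tested.

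**Figure D5:**
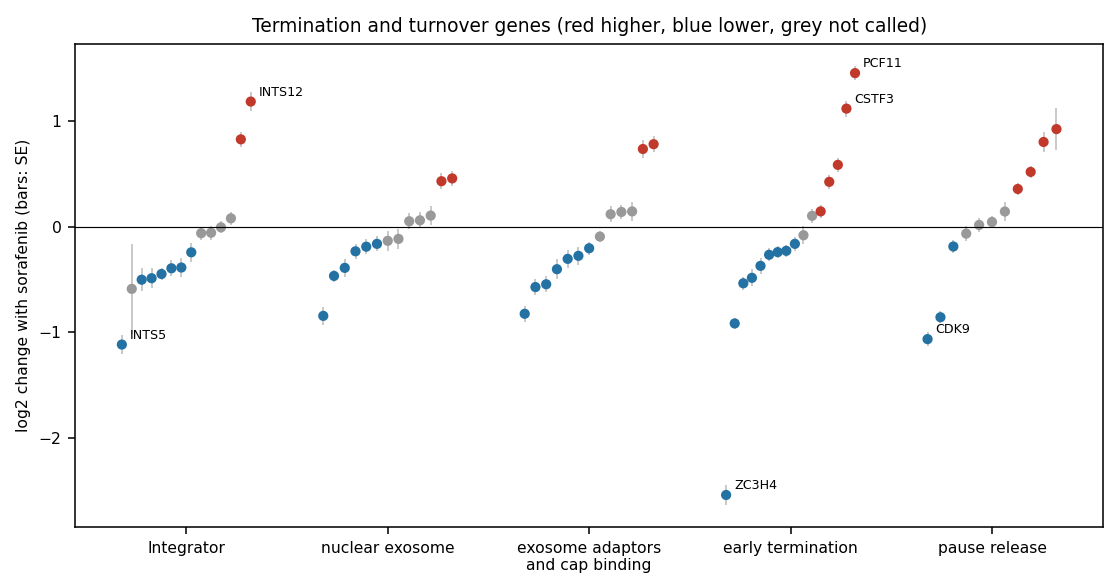
Log2 change with sorafenib (y axis) of each tested gene of 5 lists, sorted within its list, with the standard error as a bar; red rose, blue fell, grey was not called. ZC3H4 lies lowest of all at -2.54, and PCF11 highest at 1.45.

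MT1G overexpression left most divergent transcripts uncalled. Of 42 members tested, 2 rose, 1 fell and 39 were not called (limma adjusted p under 0.05), beside 11.5% of 13914 genes that rose and 11.3% that fell. The median log2 change was 0.09, against 0.00 for all genes tested, and the members ran from -0.83 to 1.66. The summed count of the 149 members was 3107, 3055 and 3106 in the MT1G libraries and 2956, 2996 and 3128 in the vector libraries, so the groups overlap. As a share of all reads in genes the members took 152, 156 and 158 ppm with MT1G and 145, 143 and 148 ppm with vector, and on that scale every MT1G library was above every vector library (156 ± 3.21 against 145 ± 2.34 ppm). Antisense RNAs did the same, at 1267, 1343 and 1337 ppm with MT1G and 1232, 1173 and 1159 ppm with vector. For RefSeq long noncoding RNAs together the groups overlapped, at 0.489 ± 0.0149% and 0.455 ± 0.0185% of counts. Of 33 members with a mean of 10 to 100, 2 rose and 0 fell, beside 7.6% and 3.43% of 3647 genes in that range.

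Both members that rose were scarce in the vector libraries. KDM7A-DT, beside a histone demethylase gene, had 7.68, 4.48 and 4.67 with vector and 23.9, 19.8 and 15.4 with MT1G (log2 1.66 ± 0.42, limma adjusted p = 0.00725), and KDM7A rose from 84.0 ± 8.11 to 134 ± 15.1 (log2 0.66 ± 0.16). FBXO30-DT, beside a ubiquitin ligase gene, had 6.58, 6.27 and 5.83 with vector and 11.9, 25.6 and 17.6 with MT1G (log2 1.36 ± 0.42, limma adjusted p = 0.0238), and FBXO30 rose from 644 ± 44.5 to 1078 ± 106, with overlapping spans. RefSeq lists FBXO30-DT as EPM2A-DT, and its span holds the whole span of FBXO30. The groups of libraries were apart for both, but of the 38 members with a vector mean of at least 10, 0 rose and 1 fell, beside 11.2% and 11.5% of 13678 genes with such a mean. The call of FBXO30-DT was lost without vector replicate 2 (limma adjusted p = 0.0528), without vector replicate 3 (limma adjusted p = 0.0562) and with DESeq2 (adjusted p = 0.0508), and without MT1G replicate 2 also 1 member rose in place of 2.

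MAFG-DT fell with MT1G as it did with sorafenib, from 226, 221 and 229 in the vector libraries to 144, 147 and 190 (log2 -0.50 ± 0.14, limma adjusted p = 0.0122). The highest MT1G library was below the lowest vector library, and MAFG was not called at 1553 ± 63.3 and 1567 ± 172. The call was lost without vector replicate 3 (log2 -0.49, limma adjusted p = 0.0508), which leaves 0 members lower, and without MT1G replicate 1 OSER1-DT joined it (log2 -0.87, limma adjusted p = 0.0488), which makes 2. KDM7A-DT, FBXO30-DT and MAFG-DT were the members called in both experiments, of 41 tested in both, each in the same direction in both. Of the 13748 genes tested in both, 31.2% rose and 38.8% fell with sorafenib. How many of those genes were called in both, or in the same direction, was not counted, so these 3 have no background. With sorafenib KDM7A-DT had 22.5, 16.4 and 14.2 in DMSO and 116, 111 and 112 in sorafenib libraries (log2 2.63 ± 0.21), and FBXO30-DT went from 11.3 ± 6.19 to 35.9 ± 1.98 (log2 1.70 ± 0.34). The experiments share no library and were normalized separately. MT1G was itself higher with sorafenib, at 180 ± 19.8 against 0 reads in all 3 DMSO libraries.

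Of the 41 pairs tested with MT1G, 0.0% had a higher ratio and 2.44% a lower one, the latter being the MAFG-DT pair alone, at a log2 change of -0.51 ± 0.13 (limma adjusted p = 0.00772). In that pair the span of MAFG-DT lies wholly within that of MAFG. Before adjustment, 2 ratios were higher and 4 lower at p under 0.05. Among 235 antisense pairs 4.68% had a higher ratio and 2.98% a lower one. The nearest to the threshold were the ratios of GMDS-DT, beside a GDP-mannose dehydratase gene (log2 0.82 ± 0.30, limma adjusted p = 0.0543), and of MAP3K2-DT, beside a kinase gene (log2 -0.50 ± 0.18, limma adjusted p = 0.0546). Without vector replicate 2 the GMDS-DT ratio passed (limma adjusted p = 0.0473), and that of NIPBL-DT passed without MT1G replicate 1 or 3 (limma adjusted p = 0.0406 and 0.0461). Without MT1G replicate 3 the MAP3K2-DT ratio passed as well (limma adjusted p = 0.0270). The GMDS-DT and MAP3K2-DT ratios also passed with the replicate number as a block (limma adjusted p = 0.0479 and 0.0397) and with a pseudocount of 5 (limma adjusted p = 0.0407 and 0.0460). The changes of members and partners had a Pearson r of 0.52 and a Spearman coefficient of 0.21 over the 41 pairs of these 6 libraries, a description with no test.

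The 10 members that rose most with sorafenib were not called with MT1G, or had too few reads to be tested. KDM7A-DT, which rose by less than these 10 (log2 2.63), was called with MT1G as given above. DNAJC3-DT had 14.7 ± 2.98 with vector and 19.2 ± 0.475 with MT1G (log2 0.39 ± 0.33, limma adjusted p = 0.429), although DNAJC3 rose from 1021 ± 23.2 to 1620 ± 167. NFE2L1-DT had 16.3 ± 1.99 with vector and 13.4 ± 5.19 with MT1G. NIPBL-DT, named for its high count and not one of those 10, had 321, 301 and 322 with vector and 282, 312 and 326 with MT1G. The groups overlapped for NIPBL-DT, and neither member was called. RPP38-DT had 5 reads with MT1G and 4 with vector in all. ZC3H4 was lower with MT1G too, at 1531 ± 59.2 and 1214 ± 44.9 (log2 -0.33 ± 0.08, limma adjusted p = 0.00574). Of the 14 Integrator, 13 nuclear exosome, 13 adaptor and cap binding, 16 early termination and 11 pause release genes tested with MT1G, 1, 3, 1, 1 and 2 rose and 1, 1, 1, 6 and 3 fell, beside 11.5% and 11.3% of all genes tested and 9.84% and 21.4% of those with a mean of at least 1000.

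The authors' deposited comparison tables give adjusted p-values for 110 members with sorafenib, of which 54 are higher and 3 lower at 0.05. For MT1G, the authors' deposited table gives 40 members an adjusted p, with 1 higher and 1 lower. The share of all genes past 0.05 in the authors' tables was not counted, so these counts have no background. Members called here but not by the authors included CCDC84-DT, SAP30-DT, IBA57-DT and GAS6-DT with sorafenib (authors' adjusted p = 0.145, 0.201, 0.0702 and 0.202). FBXO30-DT with MT1G was another (authors' adjusted p = 0.0687). The authors also called members under the minimum here, such as LYPLAL1-DT.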

How the data were processed

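Polyadenylated RNA of 12 samples and ATAC-seq of 4 were used. Per the submitters' processing notes, the build was hg38 and the tools included featureCounts 1.6.1 and HISAT2, MACS2 2.2.7.1 and Bowtie2 2.4.1, SAMtools, Picard, DESeq2 and cutadapt; their roles are not given in the sources used here. The normalized counts deposited by the authors are a signal, each gene's reads divided by a factor per library. Dividing by that step gave whole reads for all values within 0.001. The authors' deposited comparison tables hold log2 fold changes, p-values and a test score. The peak lists deposited by the authors give each peak a score, a fold enrichment (ratio) and -log10 p-values and q-values, with 1 list per sample.

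The main test was limma 3.58.1 (R 4.3.3) on log2 of the normalized count plus 1, with trended and robust prior variance, on genes whose 6 libraries averaged 10 or more, two-sided, Benjamini-Hochberg adjusted over all genes tested. Fold changes on this scale understate those of low genes. Ratios of member to partner were taken within each library and adjusted together with all genes. Comparisons were sorafenib against DMSO and MT1G against vector, in separate fits. The prior variance follows the mean of the log2 values; a trend on the log2 of the mean was tried first, and both results were seen before the choice. edgeR 4.0.16 (quasi-likelihood) and DESeq2 1.42.0 were run on the recovered reads as alternatives, beside other minimums and pseudocounts, a replicate block and each library left out. The fits were tested on simulated data. Promoter windows and spans come from RefSeq tables of GRCh38.p14; a peak counted when it overlapped the 500 bp around a start by at least 1 base. Members, gene lists and tests were chosen with earlier results of these data known. The text names the 10 largest rises, all falls, members with the highest counts, the pairs with the smallest p-values of the ratio and members called in both experiments; further pairs, and members at 0 in one group, were named after their values were seen. One item that this rule names is not reported here.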

Additional observations from a re-analysis of the deposited data

How the results depend on the processing

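Of 1350 alternatives for single members and pairs, 1319 kept their side of the threshold, 20 lost the call, 11 gained one and 0 reversed a called change. A change of sign where neither fit was called counts among the 1319. With a mean minimum of 50, 23 members rose with sorafenib, 23 ratios rose and 3 members fell, as fewer were tested. The share of all genes called at a minimum of 50 was not counted, so the counts at that minimum have no background. With the minimum taken in the other experiment 30 members and 30 ratios rose. With DESeq2, edgeR or pairs apart in span, 3 members fell, and 3 ratios fell among pairs apart. Leaving out 1 library gave 45 to 48 members higher, 3 to 6 lower, 45 to 49 ratios higher and 6 to 7 lower with sorafenib, and with MT1G 1 to 2 members higher, 0 to 2 lower, 0 to 1 ratios higher and 1 to 3 lower. With MT1G, 1 member rose with DESeq2 or among pairs apart and 0 with a minimum of 50 or a vector mean of at least 10; 0 members and 0 ratios fell among pairs apart; 2 ratios fell with a minimum of 50; and 1 ratio rose and 2 fell with a pseudocount of 5. Of starts with a peak in one group only, 1 was left for sorafenib at -log10 q of at least 5, and 1 for DMSO by summits or with windows of 1000 or 250 bp. With the prior variance trend that was tried first, an alternative added after seeing the data, 48 members rose and 4 fell with sorafenib. The cause of these shifts was not tested except where fewer were tested by construction.

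The replicate number as a block gave 47 members higher with sorafenib, and with MT1G 1 ratio higher and 2 lower. Deviations of same-numbered libraries from their group means correlated weakly (r between -0.056 and 0.029 with sorafenib and between -0.140 and 0.043 with MT1G). Differently numbered libraries had r between -0.065 and 0.084 with sorafenib and between -0.064 and 0.125 with MT1G. With 3 libraries a group, these values cannot settle whether samples were handled in pairs. Depth limits the 89 members under the minimum.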
